A study of Mus musculus with 86 samples.

Results

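Hearts of FVB and C57BL/6 mice were compared for their transcriptional response to a sustained infusion of isoproterenol, and the quantity examined was the difference between the responses: FVB treated minus FVB untreated, less C57BL/6 treated minus C57BL/6 untreated. The comparison used 42 of the 86 arrays of the series, grouped by sample title: 11 from treated FVB mice, 10 from untreated FVB mice, 10 from treated C57BL/6 mice and 11 from untreated C57BL/6 mice. Both lines are labelled wild type, and no transgene, deletion or other agent is named for them. Treated mice were infused with isoproterenol for 14 days at 120 µg/g/day, and the other mice of each line received nothing; all were killed under avertin, and age is not given in the sources used here. The remaining arrays came from the line labelled B2KO and from the hybrid line B6129SF2/J under the same regimen. The study's description reports diastolic dysfunction for C57BL/6 under the infusion, whereas FVB and B2KO are reported to have lost systolic function. A further treated FVB array, replicate 2, was left out because its strain marker probe sets read as C57BL/6, at a root mean square distance of 3.03 from FVB and 1.03 from C57BL/6.

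Isoproterenol is a synthetic catecholamine that activates beta-adrenergic receptors. In cardiomyocytes these receptors couple through a stimulatory G protein to adenylyl cyclase, and the cyclic AMP formed activates protein kinase A, which phosphorylates calcium channels, phospholamban and contractile proteins and raises the rate and force of the beat. In the nucleus the kinase phosphorylates CREB, which binds the cyclic AMP response element of many promoters, immediate early genes among them. Sustained stimulation is a common rodent model of hypertrophy and fibrosis, and inbred mouse lines are known to differ in how their hearts respond.

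Each value below is the log2 of an array's intensity relative to that array's own median, so that 0 is the median probe set of the array. Levels of different genes are not compared, because each probe set has its own brightness. The heavy chain of the adult ventricle, Myh6, read 11.0 to 12.7 on all 42 arrays. The linear 75th percentile ran from 4.64 to 8.37 in treated FVB, 3.70 to 7.17 in untreated FVB, 5.41 to 8.09 in treated C57BL/6 and 3.49 to 7.18 in untreated C57BL/6 hearts. The 3′ signal of Gapdh exceeded the 5′ signal by 2.06 log2 units on untreated FVB replicate 10 and by 7.43 on untreated C57BL/6 replicate 11, and by at most 0.39 on the other arrays. The untreated C57BL/6 group was not uniform: replicates 1, 2, 3, 4 and 6 did not overlap with the other 6 arrays in 2118 of the 11801 genes tested (17.9%), and replicates 9 and 10 lay at the other end, on the side of the treated arrays. Treated C57BL/6 replicates 4 and 8 stood apart by immediate early genes. Counts are also given without each of these sets, which were chosen after the data were seen. The labels name no batch, and p-values here reflect only the spread among arrays, which are described as separate mice although the labels count fewer mice of each line than there are arrays.

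Of 11801 genes tested, 251 (2.13%) differed in their response between the lines by limma at an adjusted p under 0.05. The response was higher in FVB for 68 genes (0.576%) and lower in FVB for 183 (1.55%), and 2036 genes had an unadjusted p under 0.05. The infusion changed 434 genes (3.68%) in FVB, of which 281 (2.38%) rose and 153 (1.3%) fell. It changed 2956 genes (25.0%) in C57BL/6, of which 2006 (17.0%) rose and 950 (8.05%) fell. The median standard error of the difference was 0.32, so that small differences were not detectable in most genes. Without treated C57BL/6 replicates 4 and 8 the difference was called for 77 genes, 25 higher and 52 lower, and 76 of these were among the 251. Without untreated C57BL/6 replicates 9 and 10 it was called for 678, 218 higher and 460 lower, and all 251 were among them. Without untreated C57BL/6 replicates 1, 2, 3, 4 and 6 only 2 genes were called, Rad51b and Slc13a3, both higher in FVB, with 1146 at an unadjusted p under 0.05. That fit has 37 arrays. Of the 54 called genes that are named here, 52 lost the call in it and 1 was no longer above the filter, and each of the 53 still tested kept its sign. The median difference of all genes was 0.14 in that fit, against −0.08 with all arrays, and the C57BL/6 effect was called for 1078 genes. Leaving out any single array gave 102 to 414 genes.

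The split between higher and lower depended on the scaling of the arrays. With quantile normalization, 364 genes were called higher and 453 lower in FVB, and with every array centred on its genes, 346 were higher and 371 lower. The same scalings gave 644 rises and 717 falls, and 525 rises and 703 falls, in FVB, and 2119 rises and 2310 falls, and 1811 rises and 2509 falls, in C57BL/6. Centring moved the median difference of all genes by 0.11, from −0.08 to 0.03 on the log2 scale. The medians of gene groups given below are therefore read beside the median of all genes.

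Most of the called genes were those that moved further in C57BL/6. The absolute effect was larger in C57BL/6 for 227 of the 251 (90.4%), against 65.1% of all genes tested. Its median over the 251 genes was 0.26 in FVB and 1.20 in C57BL/6. For the 68 genes called higher, the median effect was 0.27 in FVB and −1.15 in C57BL/6, and for the 183 called lower it was −0.16 in FVB and 1.21 in C57BL/6. Thus a difference called lower in FVB was, for most of these genes, a rise in C57BL/6 with little movement in FVB. No gene passed in both lines with opposite signs; at an unadjusted p under 0.05 in both lines, 56 genes had opposite signs and 891 the same sign. In 27 of the 251 genes both FVB means lay below the array median, where a change in FVB is hard to read, and this held for both C57BL/6 means in 4.

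**Figure D1:**
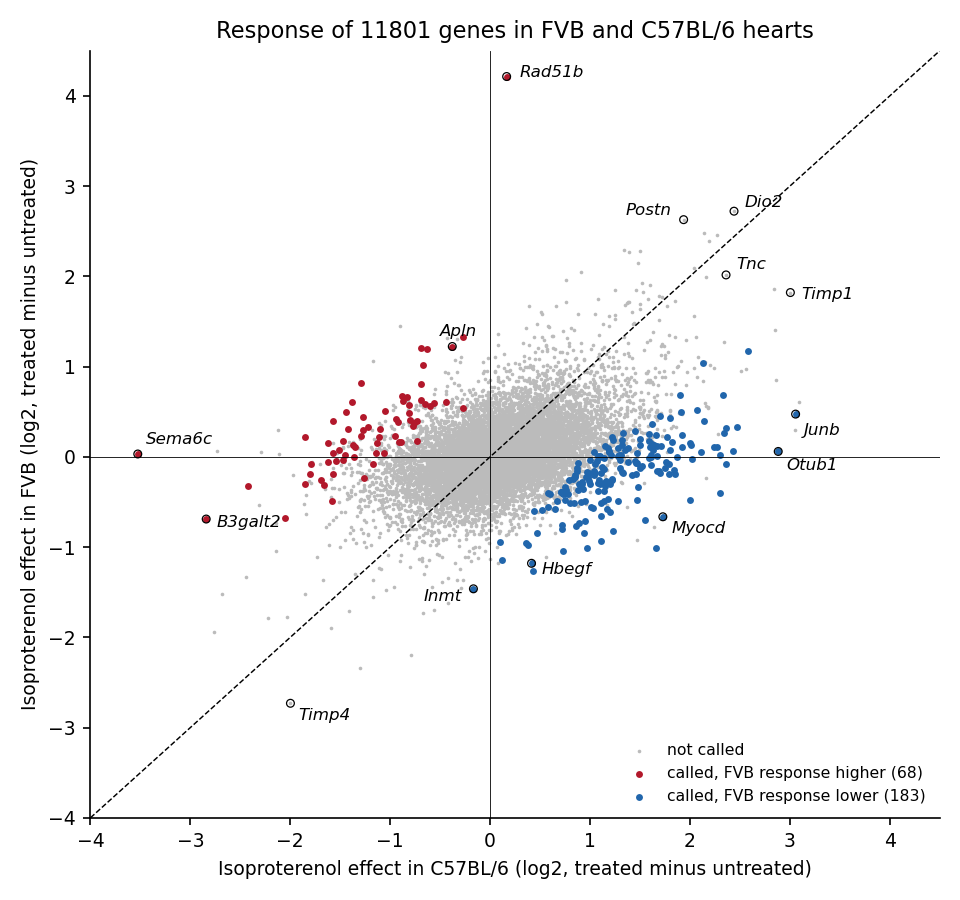
Isoproterenol effect of 11801 genes in FVB (vertical axis) against C57BL/6 (horizontal axis), each treated minus untreated on the log2 scale; the dashed line marks equal effects. Red points are the 68 genes whose response was higher in FVB and blue points the 183 lower; most lie near 0 on the FVB axis, while genes such as Dio2, Postn, Tnc and Timp4 lie far out in both lines and were not called.

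The gap between the lines was often present before treatment. Over the 251 genes, the gap between FVB and C57BL/6 was larger in untreated than in treated hearts for 167 (66.5%), against 57.1% of all genes tested. For the genes called lower, treated FVB lay a median of 0.56 below treated C57BL/6, and untreated FVB a median of 0.80 above untreated C57BL/6. For the genes called higher, the median gap was 0.46 between treated hearts and −0.97 between untreated hearts. Untreated C57BL/6 levels enter every one of these differences, and within that group replicates 9 and 10 both lay beyond the range of the other 9 arrays, towards the treated mean, in 70 of the 251 genes (27.9%) and in 5.97% of all genes. The calls were 678 without that pair and 2 without replicates 1, 2, 3, 4 and 6; why the arrays of this group differ was not tested.

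**Figure D2:**
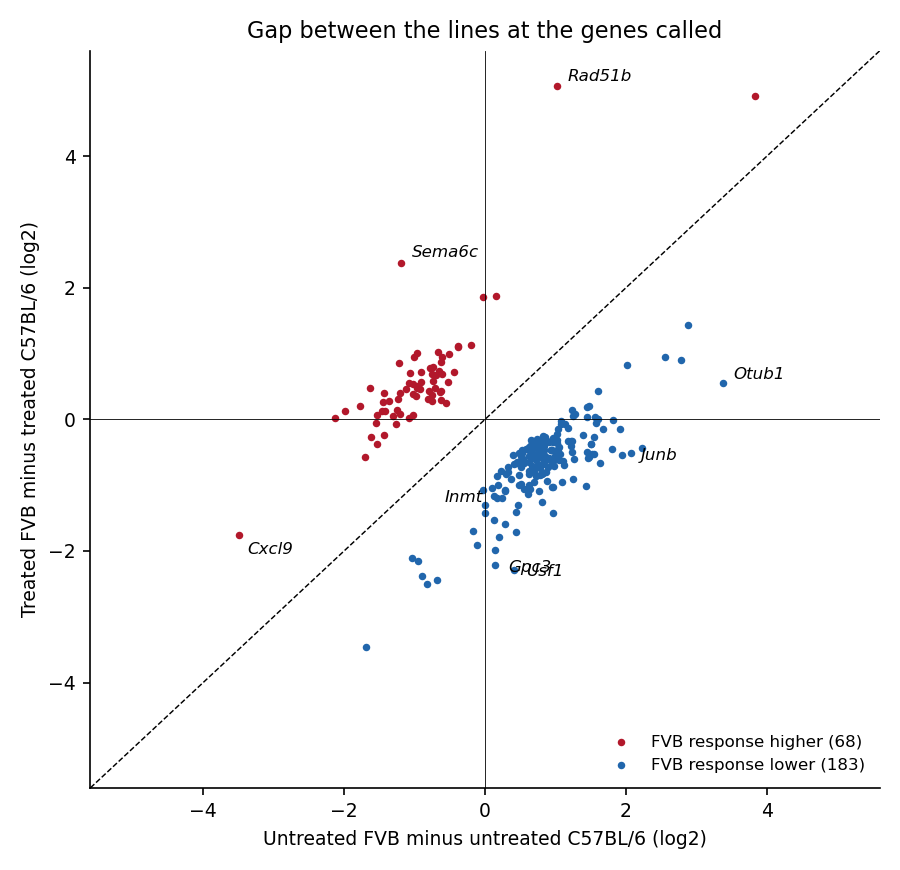
Difference between the lines (FVB minus C57BL/6, log2) in treated hearts (vertical axis) and in untreated hearts (horizontal axis) for the 251 genes called. Red genes responded more positively in FVB and lie above the dashed line of equal gaps, blue genes lie below it, and most points are farther from 0 along the untreated axis than along the treated axis.

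Part of the response was common to both lines. In all, 246 genes passed in both effects with the same sign, 178 rising and 68 falling, which was 56.7% of the genes called in FVB and 8.32% of those called in C57BL/6. The effects share no array, and across the 11801 genes their Pearson correlation was 0.45, a description in which genes share arrays and scaling. Among 53 tested genes of extracellular matrix and fibrosis, 31 rose and 1 fell in FVB, 42 rose and 1 fell in C57BL/6, and none was called different. The median effect of this list was 0.99 in FVB and 1.11 in C57BL/6, and its median difference was −0.01, between −1.18 and 1.01 for single genes, against −0.08 for all genes. That sign is not settled: the median difference was 0.09 with quantile normalization, which called 4 members higher, and 0.10 with centring, which called 3; array weights called 2 higher and 4 lower, and without untreated C57BL/6 replicates 9 and 10, 3 members were called lower.

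Periostin (Postn), a matrix protein made by activated fibroblasts, ran from 7.93 through a median of 8.37 to 8.78 in treated FVB, and 5.02 through 5.74 to 6.48 in untreated FVB. It ran from 7.22 through 7.79 to 9.22 in treated C57BL/6, and 4.88 through 5.85 to 6.89 in untreated C57BL/6. Treated and untreated arrays did not overlap in either line. The effects were 2.63 ± 0.22 in FVB and 1.94 ± 0.22 in C57BL/6, and the difference of 0.69 ± 0.31 did not pass (limma adjusted p = 0.235; 95% interval 0.07 to 1.32). It passed with quantile normalization (0.76, adjusted p = 0.0413), with centring (0.80, 0.0307) and with array weights (0.85, 0.0312).

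Dio2, the deiodinase that activates thyroid hormone, also had no overlap in either line: 1.93 to 4.02 in treated and −1.02 to 1.73 in untreated FVB, and 2.10 to 4.04 in treated and −0.79 to 1.32 in untreated C57BL/6. Its difference was 0.28 ± 0.40 (adjusted p = 0.776). No collagen gene of the list was called: the difference was 0.20 ± 0.42 for Col1a1, 0.00 ± 0.36 for Col1a2, 0.21 ± 0.28 for Col3a1 and −0.01 ± 0.33 for Col5a2, and the 95% interval for Col1a2 was −0.73 to 0.73. Tenascin C (Tnc), a matrix protein of injured tissue, rose by 2.02 in FVB and 2.36 in C57BL/6, and Cilp, a matrix protein of cartilage and stressed heart, rose by 2.39 in FVB and 2.19 in C57BL/6. The metalloproteinase inhibitors moved oppositely to each other in both lines. Timp1 rose by 1.82 ± 0.38 in FVB and 3.01 ± 0.38 in C57BL/6, with a difference of −1.18 ± 0.54 (adjusted p = 0.238). Timp4 changed by −2.73 ± 0.36 in FVB and −2.00 ± 0.36 in C57BL/6, with a difference of −0.73 ± 0.50 (adjusted p = 0.474).

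Grk5, the kinase that phosphorylates and desensitises agonist-bound receptors, rose by 0.94 ± 0.21 in FVB and 0.94 ± 0.21 in C57BL/6, with a difference of 0.01 ± 0.30 (95% interval −0.59 to 0.60). Of 43 tested genes of beta-adrenergic and cyclic AMP signalling, none was called different, where 2.13% of all genes were; 2 rose in FVB and 17 in C57BL/6, against 2.38% and 17.0% of all genes in the same order. The median effect of this list was 0.21 in FVB and 0.38 in C57BL/6. Of 29 cell cycle genes, 12 rose in FVB and 10 in C57BL/6, against the same 2.38% and 17.0% of all genes, and none was called different. The mitotic kinase Cdk1 rose by 1.77 ± 0.36 in FVB and 1.72 ± 0.36 in C57BL/6. The median difference of the cell cycle list was 0.36, and 24 of its 29 members were positive.

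Immediate early genes, which are transcribed within minutes of a stimulus without new protein synthesis, had a median difference of −0.87, against −0.08 for all genes. Of 25 tested, 3 (12.0%) were called lower in FVB, against 1.55% of all genes, none was called higher, and 22 had a negative difference. In FVB none passed and in C57BL/6 15 rose, where 2.38% and 17.0% of all genes rose in the same order. The called genes were Junb, Ier2 and Btg2. The promoters of Junb and Btg2 are printed because the cyclic AMP response element is the textbook link from this drug to such genes; they are 300 bases from RefSeq (assembly GRCm38.p6), ending 50 bases past the start site, 5′ to 3′ on the transcribed strand, with the element TGACGTCA or its core TGACG in capitals.
Junb, chr8:84978699-84978998, minus strand: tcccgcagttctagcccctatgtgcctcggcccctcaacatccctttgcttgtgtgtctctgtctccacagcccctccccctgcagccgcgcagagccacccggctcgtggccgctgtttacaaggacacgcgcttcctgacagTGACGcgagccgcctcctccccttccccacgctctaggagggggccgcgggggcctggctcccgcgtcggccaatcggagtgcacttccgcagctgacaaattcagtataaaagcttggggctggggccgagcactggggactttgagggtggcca
Btg2, chr1:134079106-134079405, minus strand: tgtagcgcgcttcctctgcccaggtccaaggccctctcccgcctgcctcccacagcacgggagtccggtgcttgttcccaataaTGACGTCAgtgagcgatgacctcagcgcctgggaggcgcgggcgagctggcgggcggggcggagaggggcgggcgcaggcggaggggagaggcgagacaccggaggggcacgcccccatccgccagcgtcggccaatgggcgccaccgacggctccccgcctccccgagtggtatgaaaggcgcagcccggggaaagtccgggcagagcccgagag

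Both strands were searched. The Btg2 window held 1 full element, whose 2 overlapping core matches, on opposite strands, began at positions −166 and −163 from the start site. The Junb window held no full element and 1 core match at position −106. Of 32851 promoters in the RefSeq table, 588 (1.79%) held the full element and 6837 (20.8%) the core, so the Junb match is a common one. A match is a description of the letters and not of binding. For Ier2 no promoter is printed.

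Junb, a subunit of the AP-1 transcription factor, ran from 2.21 through a median of 2.77 to 3.76 in treated FVB and from 1.46 through 2.36 to 3.58 in untreated FVB. It ran from 1.87 through 2.88 to 6.30 in treated C57BL/6 and from −1.08 through 0.32 to 1.78 in untreated C57BL/6. All FVB ranges overlapped, every treated C57BL/6 array lay above every untreated C57BL/6 array, and the untreated C57BL/6 group was the lowest of the 4. The effect was 0.47 ± 0.39 in FVB and 3.06 ± 0.39 in C57BL/6, and the difference was −2.58 ± 0.55 (limma adjusted p = 0.0111). Treated C57BL/6 replicates 4 and 8 read 6.30 and 6.01, against 1.87 to 3.76 on the other 8 arrays of the group. Without both it was −1.89 (adjusted p = 0.0216).

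Ier2, an immediate early gene of growth factor signalling, and Btg2, an antiproliferative gene induced by stress, followed the same arrays. Ier2 read 7.83 and 7.53 on treated C57BL/6 replicates 4 and 8, and its difference of −1.84 ± 0.53 (adjusted p = 0.0493) became −1.11 (0.106) without them. Btg2 read 8.56 and 8.74 there, and its difference of −2.06 ± 0.59 (adjusted p = 0.0497) became −1.19 (0.0897). Both calls were marginal: of 42 fits that each left out 1 array, 12 kept Ier2 and 10 kept Btg2. Fos, the partner of Jun proteins in AP-1, read 8.62 and 8.55 on the same arrays and 0.69 to 5.01 on the rest of the group. Its difference of −2.01 ± 0.90 was not called (adjusted p = 0.231) and was −0.88 without the pair. Without those replicates the median of the list was −0.35, against −0.03 for all genes, and without untreated C57BL/6 replicates 1, 2, 3, 4 and 6 it was −0.72, against 0.14. The source of the high values on these arrays was not tested.

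**Figure D3:**
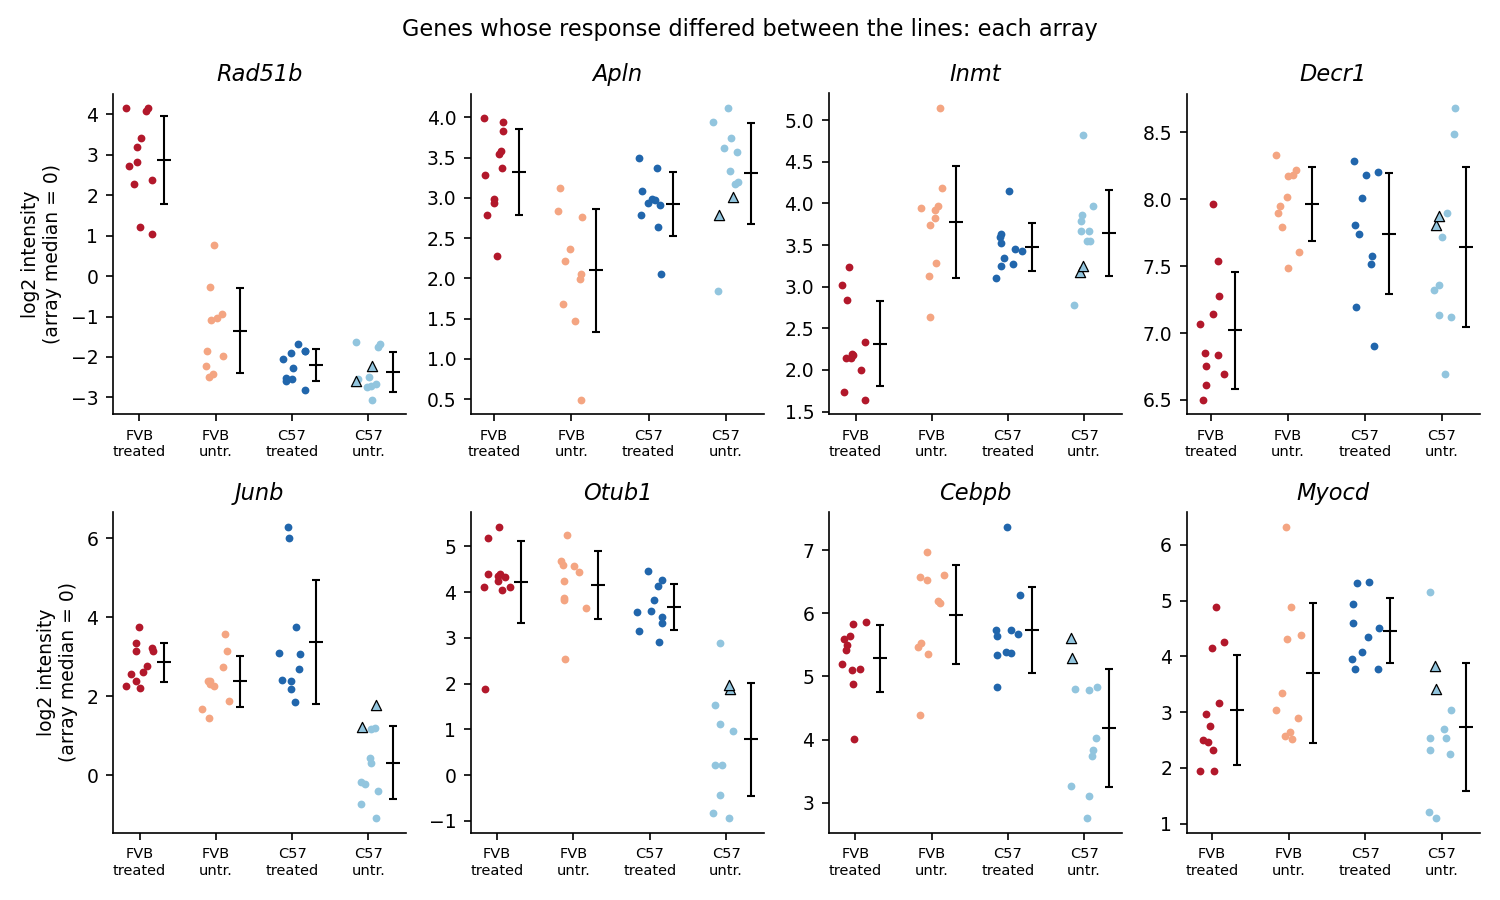
Log2 intensity of 8 genes on every array, in treated and untreated FVB and then treated and untreated C57BL/6 hearts; bars are the mean ± SD of 10 or 11 arrays and triangles mark untreated C57BL/6 replicates 9 and 10. In the upper row the FVB means differ while the C57BL/6 groups overlap; in the lower row untreated C57BL/6 has the lowest mean while the FVB groups overlap.

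Cebpb, a bZIP factor of inflammatory and metabolic genes, ran from 4.01 through 5.41 to 5.87 in treated FVB, 4.39 through 6.18 to 6.97 in untreated FVB, 4.84 through 5.65 to 7.38 in treated C57BL/6 and 2.76 through 4.03 to 5.61 in untreated C57BL/6. All 11 treated FVB arrays lay below the untreated FVB mean, and all 10 treated C57BL/6 arrays lay above theirs, although ranges overlapped in both lines. The effect was −0.69 ± 0.31 in FVB, which did not pass, and 1.55 ± 0.31 in C57BL/6, and the difference was −2.25 ± 0.43 (adjusted p = 0.00388). Untreated C57BL/6 replicates 9 and 10 read 5.61 and 5.29, above the 2.76 to 4.84 of the other 9; replicates 1, 2, 3, 4 and 6 were the 5 lowest. Without those 5 the difference was −1.54 (adjusted p = 0.198).

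Myocardin (Myocd), a coactivator of serum response factor in cardiac and smooth muscle, showed the same form. Its effect was −0.66 ± 0.41 in FVB and 1.73 ± 0.41 in C57BL/6, with a difference of −2.39 ± 0.58 (adjusted p = 0.0227). It was the sole called member of 26 genes of hypertrophy and wall stress (3.85%, against 2.13% of all genes). The differences of Usf1, a factor that binds E-boxes, and Zbtb12, a zinc finger protein, were −2.70 ± 0.49 and −2.44 ± 0.47. For Usf1 both FVB means lay below the array median (−0.95 treated and −0.55 untreated), and treated C57BL/6 was the sole group above it, at 1.35. Zeb2, a zinc finger repressor, had a difference of −2.14 ± 0.53 on its brightest probe set and of 1.28, 0.20 and 0.59 on 3 other probe sets, and with probe sets averaged it was 0.03, so its direction rests on the choice of probe set. The splicing factor Rbfox2 was the 1 called member of 46 splicing and RNA-binding genes (2.17%, against 2.13% of all genes). Its difference was −2.08 ± 0.56 (limma adjusted p = 0.0396), and it was not called with probe sets averaged (−0.61, 0.263).

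Of 32 tested genes of calcium handling, 3 (9.38%) were called lower in FVB and none higher, where 1.55% and 0.576% of all genes were. Their median difference was −0.17, against −0.08 for all genes. Orai1, the pore of store-operated calcium entry, ran from 1.06 through 2.20 to 2.61 in treated FVB, 1.71 through 2.27 to 3.02 in untreated FVB, 2.10 through 2.64 to 3.30 in treated C57BL/6 and 0.00 through 1.44 to 2.19 in untreated C57BL/6. The FVB groups overlapped between 1.71 and 2.61, and the C57BL/6 groups between 2.10 and 2.19. Its difference was −1.82 ± 0.34 (adjusted p = 0.00277). Cacna1g, a T-type calcium channel, had effects of −0.77 ± 0.32 in FVB and 0.86 ± 0.32 in C57BL/6 and a difference of −1.63 ± 0.45 (adjusted p = 0.044). Slc8a1, the sodium-calcium exchanger that extrudes calcium in diastole, had a difference of −1.82 ± 0.52 (adjusted p = 0.0481) on its brightest probe set, and −0.66 and 1.34 on 2 others.

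The main pump of the sarcoplasmic reticulum, Atp2a2, and its inhibitor phospholamban (Pln) were not called. On its brightest probe set Atp2a2 had effects of 0.04 ± 0.19 in FVB and 0.62 ± 0.19 in C57BL/6, with a difference of −0.58 ± 0.27 (limma adjusted p = 0.258). Its 5 other probe sets gave −0.05, −0.25, 0.55, 0.06 and 0.16. Pln had a difference of −0.45 ± 0.27 (adjusted p = 0.411), and −0.41 and −0.21 on 2 others. Untreated C57BL/6 replicates 1, 2, 3, 4 and 6 read 9.76 to 10.08 for Atp2a2, and the other 6 arrays 10.11 to 11.26. For Pln they read 9.64 to 9.87 and the others 9.88 to 10.91. Of 25 ion channels and gap junction genes, 2 potassium channels (8.0%) were called lower, against 1.55% of all genes. They were Kcnj12, an inward rectifier, at −2.05 ± 0.49, and Kcnh2, the rapid delayed rectifier, at −1.28 ± 0.33. Of 38 sarcomere genes 1 was called (2.63%, against 2.13% of all genes). It was Tcap (telethonin, which caps titin at the Z-disc), with effects of −0.40 ± 0.19 in FVB and 0.58 ± 0.19 in C57BL/6. Its difference was −0.98 ± 0.27 (limma adjusted p = 0.0412). The sarcomere list had a median difference of −0.45, and 5 of its 38 members were positive. Without treated C57BL/6 replicates 4 and 8, Cacna1g, Slc8a1, Kcnj12, Kcnh2 and Tcap were not called and Orai1 was.

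Nppa, Nppb, Acta1 and Myh7, genes fixed by name that are widely read as markers of cardiac load, were not called. The natriuretic peptide gene Nppa had effects of 0.29 ± 0.18 in FVB and 0.70 ± 0.18 in C57BL/6 (difference −0.41 ± 0.26, adjusted p = 0.42), and Nppb had 0.31 ± 0.35 and 0.32 ± 0.35 in the same order (difference −0.01 ± 0.49). Skeletal actin (Acta1) ran from 5.79 through 7.20 to 8.80 in treated FVB, 6.89 through 9.09 to 9.86 in untreated FVB, 6.42 through 7.58 to 8.89 in treated C57BL/6 and 6.53 through 8.14 to 9.84 in untreated C57BL/6. Its effect was −1.62 ± 0.34 in FVB, a fall (adjusted p = 0.0023), and −0.42 ± 0.34 in C57BL/6. The difference of −1.19 ± 0.49 was not called (adjusted p = 0.186), so the fall is not shown to be larger in FVB; array weights called it (−1.52, 0.0163). The beta heavy chain Myh7 had a difference of −0.96 ± 0.54 (limma adjusted p = 0.365), and its level was higher in FVB by 1.79 in treated and 2.75 in untreated hearts. Untreated C57BL/6 replicates 1, 2, 3, 4 and 6 lay below the other 6 arrays of that group for 3 of these genes. They read 9.3 to 9.7 against 9.8 to 10.6 for Nppa, and 6.4 to 7.6 against 7.8 to 9.2 for Nppb. For Myh7 they read 3.5 to 4.2 against 4.4 to 7.2, and for Acta1 the ranges overlapped.

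Of 37 tested genes of fatty acid oxidation, the main fuel pathway of the adult heart, 2 (5.41%) were called lower in FVB, against 1.55% of all genes. None was called higher, 5 had a positive difference, and the median difference was −0.44, against −0.08 for all genes. No member was called without treated C57BL/6 replicates 4 and 8 or without untreated C57BL/6 replicates 1, 2, 3, 4 and 6, where the medians were −0.38 and −0.12. The median effect was −0.29 in FVB and 0.12 in C57BL/6. In FVB 5 of these genes fell, where 1.3% of all genes did. In C57BL/6 hearts, 6 rose and 2 fell, where 17.0% and 8.05% of all genes did, in the same order. Decr1, an auxiliary enzyme of the oxidation of unsaturated fatty acids, ran from 6.50 through 6.85 to 7.96 in treated FVB and 7.48 through 7.98 to 8.33 in untreated FVB. It ran from 6.90 through 7.77 to 8.28 in treated C57BL/6 and 6.69 through 7.71 to 8.68 in untreated C57BL/6. All 11 treated FVB arrays lay below the untreated FVB mean, and the treated C57BL/6 arrays lay within the untreated C57BL/6 range. The effect was −0.94 ± 0.21 in FVB and 0.10 ± 0.21 in C57BL/6, and the difference of −1.04 ± 0.29 (adjusted p = 0.0459) was kept in 14 of 42 fits that left out 1 array. Acads, which oxidises short-chain acyl-CoA, had effects of −0.59 ± 0.20 in FVB and 0.52 ± 0.20 in C57BL/6 and a difference of −1.11 ± 0.28 (adjusted p = 0.0267).

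Other energy pathways had no called member. The median difference was −0.32 over 45 genes of oxidative phosphorylation, with 2 positive, −0.29 over 23 genes of the tricarboxylic acid cycle and −0.23 over 24 of glycolysis. These medians were −0.09, −0.07 and −0.09 in that order with quantile normalization, against 0.01 for all genes. With centring they were −0.21, −0.18 and −0.12, against 0.03 for all genes. With array weights they were −0.37, −0.39 and −0.40, against −0.13 for all genes, and 5, 3 and 3 members were called lower. No member was called among 30 antioxidant genes, 24 heat shock proteins, 25 genes of endoplasmic reticulum stress, 26 ribosomal proteins, 32 proteasome and ubiquitin ligase genes or 17 clock genes either. Array weights, with 1209 genes called in all, called members of each of these lists, among them 6 antioxidant genes lower. Of 26 interferon response genes none was called, 18 were positive, and the median difference was 0.29.

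**Figure D4:**
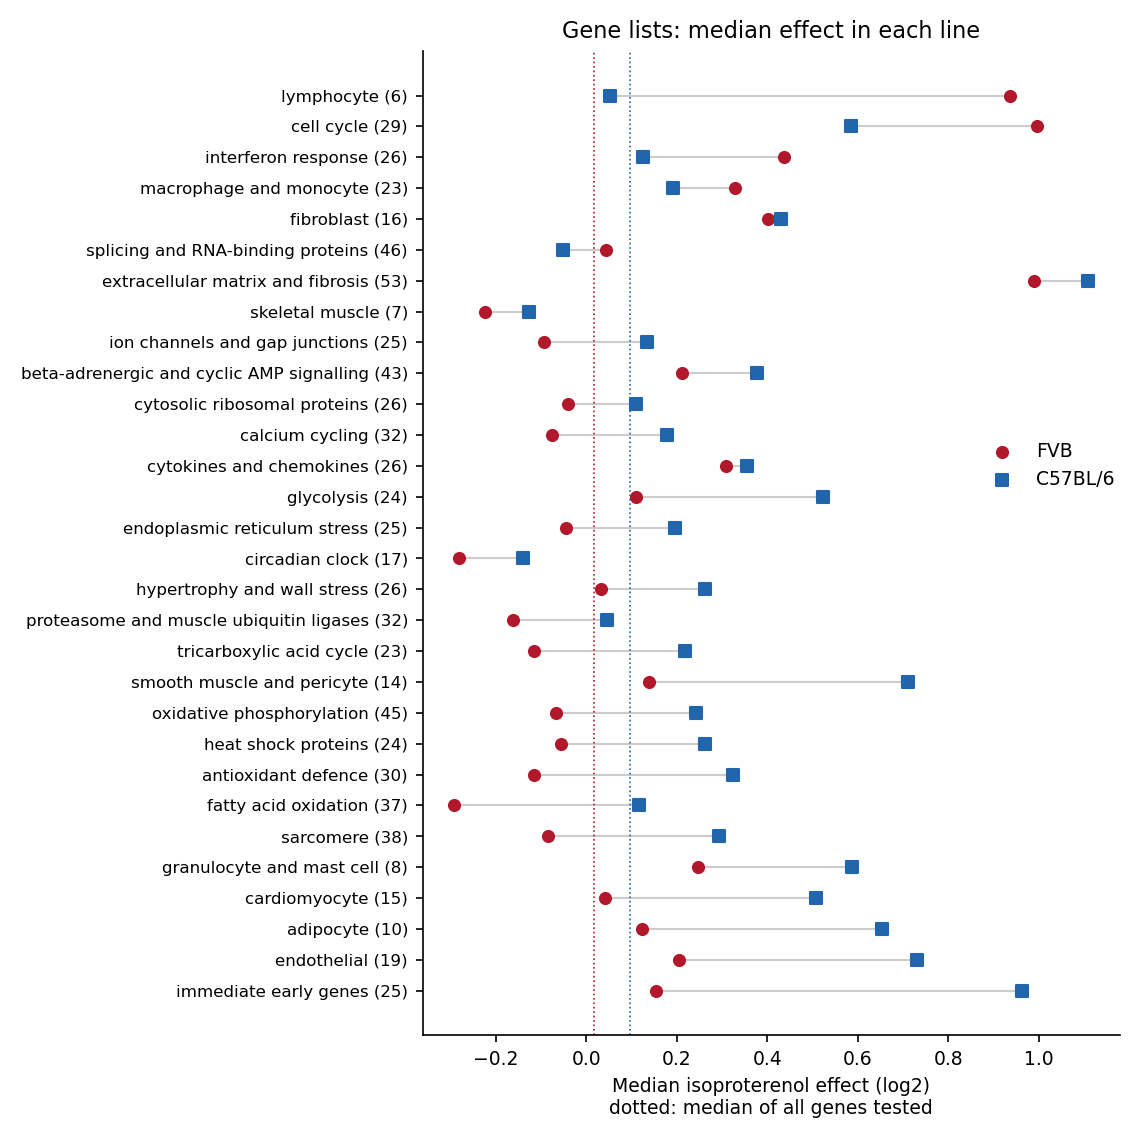
Median isoproterenol effect (log2, treated minus untreated) of 30 gene lists in FVB (red circles) and C57BL/6 (blue squares), ordered by the median difference, with the number of genes tested in brackets; dotted lines are the medians of all genes tested. Extracellular matrix genes lie far to the right in both lines, and immediate early genes stand at the bottom, with median effects near 0.15 in FVB and 0.96 in C57BL/6.

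A minority of 24 called genes moved further in FVB than in C57BL/6, and 14 of these also passed in the FVB effect; they were singled out after their values were seen. Rad51b, a gene of DNA repair by homologous recombination, had the largest difference in the table. It ran from 1.05 through 2.82 to 4.16 in treated FVB and from −2.48 through −1.47 to 0.77 in untreated FVB, against −2.82 through −2.16 to −1.68 in treated C57BL/6 and −3.06 through −2.55 to −1.63 in untreated C57BL/6. Treated FVB arrays lay above every other array, and C57BL/6 arrays were below their array median throughout. The effect was 4.21 ± 0.33 in FVB and 0.17 ± 0.33 in C57BL/6, with a difference of 4.05 ± 0.47 (adjusted p = 2.31e-07). The treated FVB array left out for its strain markers read −2.55 for this gene, within the C57BL/6 range.

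Apln, the gene of the peptide apelin, whose receptor acts on vessels and contractility, ran from 2.28 through 3.37 to 3.99 in treated FVB and 0.49 through 2.14 to 3.12 in untreated FVB. It ran from 2.05 through 2.95 to 3.49 in treated C57BL/6 and 1.84 through 3.33 to 4.11 in untreated C57BL/6. All 11 treated FVB arrays exceeded the untreated FVB mean, whereas the C57BL/6 groups overlapped widely. The effect was 1.22 ± 0.25 in FVB and −0.38 ± 0.25 in C57BL/6, with a difference of 1.60 ± 0.36 (adjusted p = 0.0149). The orphan receptor gene Gpr162 (FVB effect 1.33 ± 0.29), the complement regulator Cfi (1.21 ± 0.35) and the giant cadherin Fat4 (1.20 ± 0.27) also rose in FVB and were called higher, with C57BL/6 effects of −0.27, −0.69 and −0.64 that did not pass. For Cfi, treated FVB was the sole group with a mean above the array median, at 0.28, so Cfi passed the filter through that group alone. Its call was lost with no filter and with the replicate block. A second probe set of Fat4 gave a difference of −0.44, and Fat4 was not called with probe sets averaged (0.70, limma adjusted p = 0.183).

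The genes that fell in FVB included metabolic enzymes. Inmt, which methylates indoleamines, ran from 1.64 through 2.18 to 3.23 in treated FVB, 2.63 through 3.87 to 5.14 in untreated FVB, 3.10 through 3.44 to 4.15 in treated C57BL/6 and 2.78 through 3.67 to 4.82 in untreated C57BL/6. Treated FVB was the low group, with its median below every array of the other 3. The effect was −1.46 ± 0.23 in FVB and −0.17 ± 0.23 in C57BL/6, and the difference was −1.30 ± 0.32 (adjusted p = 0.0262). Fah, the last enzyme of tyrosine breakdown, fell by 1.14 on the log2 scale in FVB, and Bckdha, a subunit of the branched-chain ketoacid dehydrogenase, fell by 0.96; their differences were −1.26 ± 0.31 and −1.32 ± 0.32. Hbegf, a growth factor of the EGF family, had effects of −1.18 ± 0.28 in FVB and 0.41 ± 0.28 in C57BL/6 and a difference of −1.59 ± 0.39 (adjusted p = 0.0253), with 0.07 on its other probe set. Without treated C57BL/6 replicates 4 and 8, Decr1, Acads, Gpr162, Cfi, Inmt, Fah, Bckdha and Hbegf were not called (adjusted p from 0.0553 for Inmt and Bckdha to 0.128 for Decr1), while Rad51b, Apln and Fat4 were. Of all these genes, only Rad51b was called without untreated C57BL/6 replicates 1, 2, 3, 4 and 6.

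Among genes called higher in FVB, the largest differences after Rad51b came from falls in C57BL/6. B3galt2, a galactosyltransferase, ran from −1.14 through 0.05 to 1.56 in treated FVB, −0.56 through 0.77 to 1.66 in untreated FVB, −0.98 through 0.04 to 0.50 in treated C57BL/6 and 1.92 through 2.57 to 3.99 in untreated C57BL/6. The untreated C57BL/6 arrays were above all others, and the treated means of the lines lay 0.02 apart. Its difference was 2.15 ± 0.42 (adjusted p = 0.00388). The transmembrane semaphorin Sema6c had effects of 0.03 ± 0.56 in FVB and −3.53 ± 0.56 in C57BL/6, a difference of 3.56 ± 0.79 (adjusted p = 0.0147), but another of its probe sets gave −1.17. Depp1, a target of FOXO factors, had effects of 0.50 ± 0.30 in FVB and −1.44 ± 0.30 in C57BL/6 and a difference of 1.94 ± 0.42 (adjusted p = 0.0113). Within untreated C57BL/6, replicates 1, 2, 3, 4 and 6 read 3.44 to 4.28 for Sema6c and the other 6 arrays −0.27 to 1.36, and for Depp1 they read 7.22 to 7.99 and the others 4.95 to 6.53. Without those 5 arrays the differences were 2.03 (adjusted p = 0.353) for Sema6c and 1.07 (0.314) for Depp1.

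Tmem229a (2.07 ± 0.39), Fam110c (1.97 ± 0.37) and the antisense transcript Hectd2os (1.77 ± 0.45) had the same form, with C57BL/6 effects of −1.85, −1.57 and −1.62. Both FVB means lay below the array median for Tmem229a (−0.84 treated, −1.05 untreated) and Fam110c (−0.09, −0.49), and untreated C57BL/6 was the sole group above it, at 0.16 and 0.48. Gpaa1, a subunit of the transamidase that attaches membrane anchors, and the secreted semaphorin Sema3f were called at 2.11 ± 0.50 and 1.98 ± 0.53, yet their other probe sets were negative, and with probe sets averaged they were 0.32 and −0.03. Sema3f read 5.35 to 6.86 on untreated C57BL/6 replicates 1, 2, 3, 4 and 6 and 2.59 to 4.56 on the other 6. The chemokine Cxcl9, induced by interferon gamma, was the 1 higher call among 26 cytokines and chemokines, at 1.72 ± 0.46 (adjusted p = 0.0379). Its FVB level minus its C57BL/6 level was −1.76 in treated and −3.49 in untreated hearts, and both FVB means were below the array median. Il34, a ligand of the CSF1 receptor, was the 1 lower call of that list, at −1.68 ± 0.42, also with both FVB means below the array median. Together these calls were 7.69% of the list, against 2.13% of all genes.

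The largest negative difference belonged to Otub1, a deubiquitinase. It ran from 1.87 through 4.32 to 5.43 in treated FVB, 2.53 through 4.34 to 5.25 in untreated FVB, 2.90 through 3.57 to 4.47 in treated C57BL/6 and −0.94 through 0.97 to 2.88 in untreated C57BL/6. The untreated C57BL/6 group had the lowest mean and lay below every treated C57BL/6 array, but its range overlapped with both FVB groups. The effect was 0.06 ± 0.36 in FVB and 2.88 ± 0.36 in C57BL/6, with a difference of −2.82 ± 0.51 (adjusted p = 0.0026). Ephb4, the venous ephrin receptor, had no overlap in C57BL/6 either, at 3.56 to 4.63 in treated and 0.19 to 3.35 in untreated hearts, against 2.68 to 4.38 in treated and 3.06 to 3.90 in untreated FVB. Its difference was −1.88 ± 0.34 (adjusted p = 0.0026).

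The remaining large negative differences were those of Rasl10a, a small GTPase (−2.67 ± 0.47), Ankrd9 (−2.48 ± 0.53), the glypican Gpc3 (−2.37 ± 0.54), the phosphatase regulator Ppp1r35 (−2.29 ± 0.45) and the Wnt coreceptor Lrp5 (−2.17 ± 0.53). For Rasl10a the C57BL/6 effect was 1.66 and the FVB effect −1.01 ± 0.33, which did not pass (adjusted p = 0.0809). For the other 4 the C57BL/6 effect was 2.00 to 2.43 and the FVB effect −0.48 to 0.11. Both FVB means of Gpc3 lay below the array median (−0.52 treated, −0.59 untreated), and treated C57BL/6 was the sole group above it, at 1.70. Ankrd9 ran over more than 4 log2 units in untreated C57BL/6, from −2.12 to 2.47, with replicates 5, 7, 8, 9 and 10 between 1.84 and 2.47. Over all 56 alternative fits, with a gene not tested in a fit counted as not called, Rad51b alone was called every time. Over the 55 that kept untreated C57BL/6 replicates 1, 2, 3, 4 and 6 together or left out at most 1 of them, 15 genes were called every time, singled out after their values were seen: Rad51b, Depp1 and Apln higher in FVB, and Otub1, Junb, Ankrd9, Myocd, Cebpb, Orai1, Ephb4, Pcp4l1, Tmem37, Ptcd1, Rab1b and Dhx38 lower.

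Of the 251 genes, 86 had another probe set above the filter, and in 59 of these (68.6%) every other probe set gave the same sign, against 48.5% of 5475 genes of the whole table. For B3galt2 the other probe set gave 0.41, for Depp1 0.85, for Cxcl9 1.03, for Otub1 −0.50, for Usf1 −1.45, for Cebpb −2.87, for Myocd −0.82 and for Btg2 −1.13. For Rad51b, Junb, Apln and Inmt no other probe set was above the filter.

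The cell type markers moved with several of these groups. In whole hearts, fewer cells of a type and less RNA per cell cannot be told apart. The endothelial list had a median difference of −0.57, with 1 of 19 called (5.26%, against 2.13% of all genes). The called gene was Egfl7 (−0.99 ± 0.27, limma adjusted p = 0.0412), a secreted factor of endothelial cells. The median effect of the list was 0.21 in FVB and 0.73 in C57BL/6. The summed linear intensity of its 19 markers was 482 to 898 in treated FVB, 302 to 810 in untreated FVB, 418 to 927 in treated C57BL/6 and 220.0 to 592 in untreated C57BL/6. The smooth muscle and pericyte list had 2 of 14 called (14.3%, against 2.13% of all genes), both actin-associated proteins. They were Lmod1 (−1.66 ± 0.44, limma adjusted p = 0.0366) and Tagln (−1.10 ± 0.31, 0.0496). The sum of this list was 1215 to 2926 in treated FVB, 1080 to 2112 in untreated FVB, 1130.3 to 2303 in treated C57BL/6 and 686 to 1649 in untreated C57BL/6. Neither list had a called member with no filter, with the replicate block or without treated C57BL/6 replicates 4 and 8. Of 42 fits that each left out 1 array, 20 kept Egfl7, 33 kept Lmod1 and 13 kept Tagln.

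None of 15 cardiomyocyte markers was called, none rose in FVB and 8 rose in C57BL/6, against 2.38% and 17.0% of all genes in that order, and their median difference was −0.47. Their sum had a median of 21798 in treated FVB, 21893 in untreated FVB, 25841 in treated C57BL/6 and 17364 in untreated C57BL/6. The adipocyte list, with none of 10 called and a median difference of −0.53, had a median sum of 1625 in treated FVB, 1446 in untreated FVB, 2156 in treated C57BL/6 and 1362 in untreated C57BL/6. Its member Ucp1, the uncoupling protein of brown fat, ran from −1.42 to 6.94 in treated FVB and from 0.56 to 6.93 in treated C57BL/6, and its difference of −2.75 ± 1.27 was not called (adjusted p = 0.251). In each of these lists the untreated C57BL/6 group had the lowest median sum. The part of cell composition in the gene results was not tested.

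Fibroblast markers (0 of 16 called, median difference 0.04) and macrophage and monocyte markers (0 of 23, 0.08) lay near the median of all genes. Of lymphocyte markers 6 of 18 passed the filter and all 6 were positive, with a median difference of 0.61, and none was called. Their summed intensity over the 15 markers measured was 15.0 to 251 in treated FVB, 14.9 to 40.1 in untreated FVB, 21.0 to 209 in treated C57BL/6 and 24.9 to 66.6 in untreated C57BL/6, and Nkg7 was below the array median everywhere. Granulocyte and mast cell markers (0 of 8, −0.46), skeletal muscle markers (0 of 7, −0.06), erythroid markers (0 of 2, 0.93) and lung epithelial markers (0 of 2, 0.06) had no call; 2 treated FVB arrays stood apart with lung sums of 67.5 and 52.6, against at most 9.67 in the other 3 groups.

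The same infusion in B2KO and B6129SF2/J hearts gave values from arrays that the difference does not use. Over the 251 genes the B2KO effect was nearer to the FVB than to the C57BL/6 effect in 89.2%, against 64.3% of all genes, and the B6129SF2/J effect in 91.6%, against 69.3%. The genes were chosen for a gap between FVB and C57BL/6, so the excess was not tested. The median effect over the 183 genes called lower was 0.02 in B2KO and −0.15 in B6129SF2/J, and over the 68 called higher it was 0.03 and 0.13 in the same order.

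Junb had effects of 0.48 ± 0.43 in B2KO and −0.09 ± 0.41 in B6129SF2/J, and Otub1 of 0.30 ± 0.46 and 0.09 ± 0.43. Rad51b had an effect of 1.98 ± 0.51 in B2KO, between those of FVB and C57BL/6, and of −0.01 ± 0.47 in B6129SF2/J. Decr1 had −0.55 ± 0.21 in B2KO and −0.86 ± 0.20 in B6129SF2/J. Apln, by contrast, had 0.30 ± 0.26 in B2KO and −0.28 ± 0.25 in B6129SF2/J, both nearer to the C57BL/6 effect than to the FVB effect. Cacna1g had −1.60 ± 0.33 in B2KO and −0.98 ± 0.31 in B6129SF2/J, farther below 0 than its effect in FVB.

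**Figure D5:**
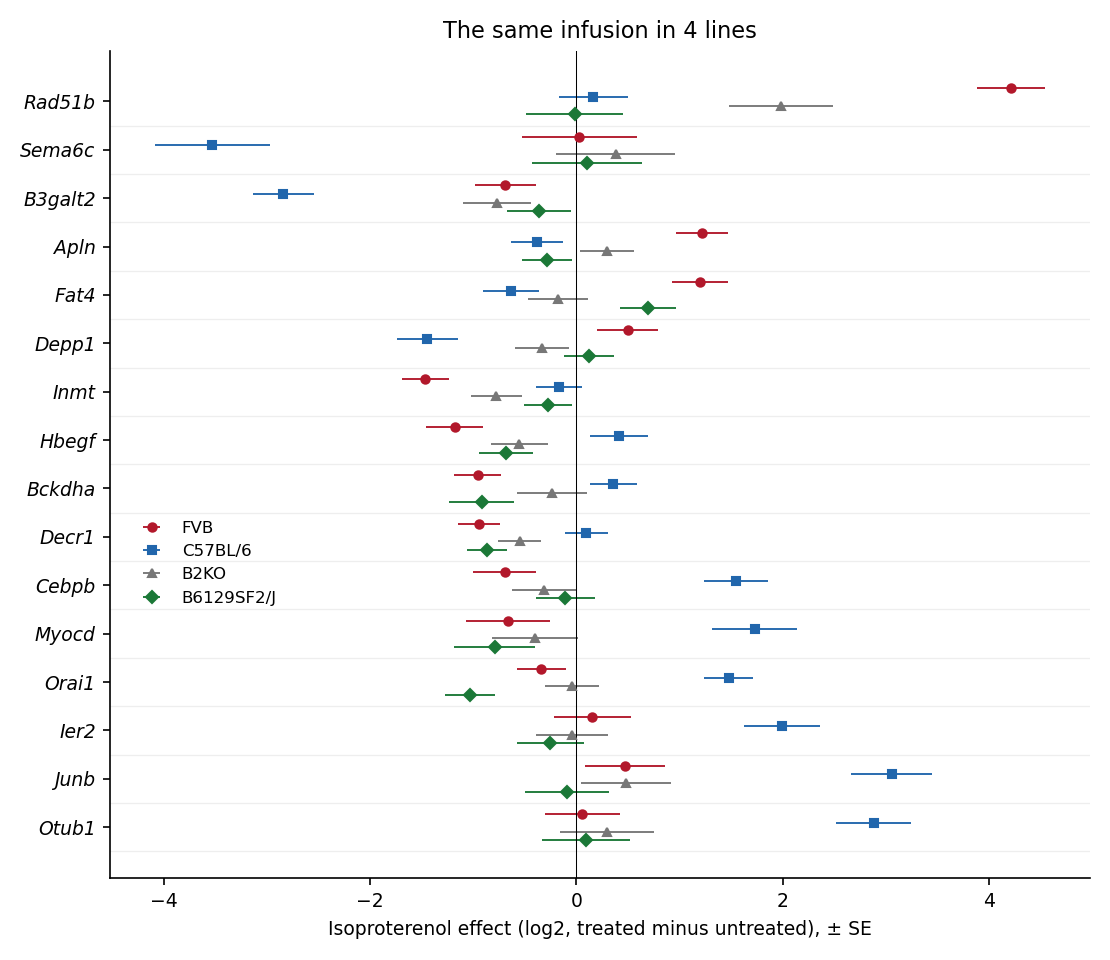
Isoproterenol effect (log2, treated minus untreated, ± SE) of 16 called genes in FVB, C57BL/6, B2KO and B6129SF2/J hearts. For genes such as Sema6c, B3galt2, Junb and Otub1 the C57BL/6 square stands apart from the other 3 lines, whereas for Rad51b and Apln the FVB circle does.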

How the data were processed

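Heart RNA was measured on Affymetrix arrays, 1 array a sample. The deposited values are linear intensity values made with GCRMA (version not stated), per the submitters' processing notes; from the values, each array was divided by its own median, and log2 was taken here. Of 45101 probe sets, 34945 had 1 gene symbol, giving 18193 genes (99.4% matched by gene number to RefSeq, GRCm38.p6); the probe set with the highest mean stood for a gene. Genes whose highest group mean exceeded a log2 value of 0 were kept. A 4-group model was fitted with limma 3.58.1 in R 4.3.3 with Benjamini-Hochberg adjustment over all genes kept and a threshold of 0.05. The code was tested on simulated data. Arrays of B2KO and B6129SF2/J, which include 1 failed array and 1 duplicate pair, did not enter the 4-group model. Their effects came from a separate fit of all groups, without the failed array and with the duplicates averaged. The alternative with all 8 groups kept the failed array. Arrays with a high 3′ to 5′ Gapdh difference stayed in the separate fit. The difference was 7.31 on untreated B2KO replicate 8, 4.35 on untreated B6129SF2/J replicate 8 and 2.25 on treated B6129SF2/J replicate 7. Effects are treated minus untreated, and the number of arrays limits the precision. Named genes were the 12 largest called differences in each direction, up to 4 called members of each list by smallest p, up to 8 genes passing in both lines with effects over 1 and the smallest difference, genes fixed by name, and those said in the text to be chosen after their values were seen; no gene met a further rule, on opposite calls in the lines. The comparison, gene lists and named genes were chosen with earlier results of these data known. Alternatives covered array choice, scaling, filter, probe sets, moderation, array weights, replicate block and each array left out; leaving out 2 pairs and 1 set of 5 C57BL/6 arrays was chosen after seeing the data.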

Additional observations from a re-analysis of the deposited data

Results flagged for a closer look

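The 251 genes called by limma are themselves differences between the lines, tested as an interaction. Among 170 groups of 10 arrays of named genes, 14 held an array far from the others by Dixon's criterion, which chance gives in about 1 of 20 groups. The groups of 11 arrays, treated FVB and untreated C57BL/6, were not tested by this criterion. Treated C57BL/6 replicate 2 was high in 6: Gpc3 read 3.82 (others 0.36 to 2.13), Col1a2 8.46 (6.67 to 7.61), Col5a2 7.30 (5.29 to 6.28), Mfap5 7.61 (5.65 to 6.67), Lgals3 7.48 (4.85 to 5.86) and Inmt 4.15 (3.10 to 3.63). Treated C57BL/6 replicate 7 was high for Thy1 at 6.05 (2.20 to 3.61) and low for Atp2a2 at 10.4 (10.8 to 11.2), Grk5 at 4.29 (4.99 to 5.77) and Fbxo31 at 3.28 (4.27 to 5.34). Untreated FVB replicate 10, the array with the high 3′ to 5′ Gapdh difference, was high for Zeb2 at 6.76 (1.53 to 2.79) and Myh7 at 10.3 (5.76 to 8.10). Untreated FVB replicate 3 read 0.99 for Usf1 (−1.31 to −0.13), and treated C57BL/6 replicate 3 read 2.96 for Cacna1g (1.32 to 1.94). The sources of these values were not tested.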

How the results depend on the processing

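The count of 251 genes was 138 with all 8 groups in the fit, 817 with quantile normalization, 717 with centring, 107 with no filter, 1209 with array weights, 127 with the replicate block, 678 without untreated C57BL/6 replicates 9 and 10, 77 without treated C57BL/6 replicates 4 and 8 and 2 without untreated C57BL/6 replicates 1, 2, 3, 4 and 6, and 102 to 414 with 1 array left out. It stayed within 1.5 times under the other alternatives (172 to 318). Single arrays moved it beyond 1.5 times 17 times: untreated FVB replicates 4 (139) and 5 (125), treated FVB 4 (151), 8 (138), 9 (115) and 10 (120), untreated C57BL/6 1 (102), 2 (119), 3 (117), 4 (129), 6 (136), 9 (411) and 10 (414), and treated C57BL/6 2 (151), 3 (121), 4 (147) and 8 (158). The FVB effect, 434 genes, gave 263 with the excluded array kept, 289 with all groups, 1361 with quantile normalization, 1228 with centring and 1787 with array weights. It gave 319 to 488 with 1 array left out. The C57BL/6 effect, 2956 genes, gave 2438 to 3205 with 1 array left out. It gave 4429 with quantile normalization, 4320 with centring, 3830 with array weights, 2370 with all groups and 2143 with the stricter filter. It gave 3443 without untreated C57BL/6 replicates 9 and 10 and 2237 without treated C57BL/6 replicates 4 and 8. Without the 5 untreated C57BL/6 arrays it gave 1078. The causes were not tested. Replicate numbers did not pair the arrays: over 58 same-numbered pairs the median correlation of deviations was −0.005 (−0.23 to 0.22), and the block correlation was −0.05. With probe sets averaged, Sema3f (−0.0307) and Zeb2 (0.0286) reversed. Of 54 named called genes, 52 lost the call without untreated C57BL/6 replicates 1, 2, 3, 4 and 6, 29 without treated C57BL/6 replicates 4 and 8, 18 with no filter and 14 with the replicate block. Dim genes limit what the arrays show: the scale has no detection call.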
